A study of Homo sapiens with 32 samples.

Results

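The cytoplasmic poly(A) RNA of HEK293T cells in which IGF2BP2 had been knocked out was compared with the cytoplasmic RNA of control cells, and the change was then set against the change in total RNA of the same cell lines. The comparison rested on 6 of the 32 libraries of the series: cytoplasmic IGF2BP2 knockout libraries 1 and 2, and cytoplasmic control libraries 1 to 4. HEK293T is an established human embryonic kidney cell line that carries the SV40 large T antigen. The cells had received no treatment other than genome editing. Plasmids that do not integrate supplied 3 guide RNAs against IGF2BP2 together with GFP, and the knockout was 1 clone grown from a sorted GFP-positive cell. The control received a guide that matches no mammalian gene, and the labels do not say whether it was a clone or a pool. The knockout libraries belonged to batches 3 and 4 and the control libraries to batches 1, 2, 3 and 4, so with a batch term the change came from 2 knockout and 2 control libraries of batches 3 and 4. Libraries of 1 clone repeat that clone, so p-values measure the spread between libraries, and effects of the clone cannot be told apart from effects of the lost gene. Total RNA was represented by the matching 2 knockout and 4 control libraries.

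IGF2BP2, also called IMP2, is an RNA-binding protein with RNA recognition motifs and KH domains that acts mainly in the cytoplasm. Together with its relatives IGF2BP1 and IGF2BP3 it binds mRNAs, many of them carrying N6-methyladenosine (m6A), and influences their stability, localization and translation. The family is expressed in embryonic tissue and in many tumours, and IGF2BP2 is known for its links to IGF2 translation, metabolism and mitochondrial function.

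Cytoplasmic depth ranged from 16720159 to 24499210 counts and total RNA depth from 16179939 to 23449208 counts. At near equal depth, cytoplasmic control library 2 (21758636 counts) had 24119 gene identifiers above 0 and cytoplasmic knockout library 2 (21727586 counts) had 26891. Levels are given as normalized CPM, with CPM computed on library sizes scaled by TMM within each RNA kind. Of the 9 markers of the HEK293 line, all were tested, 4 rose and 5 fell, and their summed level was 2410 to 2477 CPM in the cytoplasmic controls and 2956 and 3074 CPM in the knockout. Of 16 markers of blood, endothelial, fibroblast and epithelial cells, 4 passed the filter on low counts, and the sum of all 16 was 7.31 to 8.37 CPM in the controls and 12.6 and 13.3 CPM in the knockout.

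The targeted RNA was lower in both knockout libraries without being lost. IGF2BP2 (ENSG00000073792, GRCh38 chromosome 3, 185643739 to 185825056, minus strand) had 87.0, 84.3, 89.4 and 89.3 normalized CPM in cytoplasmic controls 1 to 4 and 34.3 and 36.0 in the knockout. The groups did not overlap, and the log2 change was -1.35 (SE 0.0537, adjusted p = 4.91e-21). Total RNA showed a change of -1.31 (SE 0.119, adjusted p = 2.73e-06), and the difference between the 2 RNA kinds was 0.0023 (adjusted p = 0.999). The labels report screening at the protein level, and RNA that is still transcribed from an edited gene is counted here.

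Both relatives of the targeted gene also fell in the cytoplasm. IGF2BP1 had 435, 428, 358 and 366 normalized CPM in the controls and 231 and 236 in the knockout, a log2 change of -0.63 (SE 0.0362, adjusted p = 8.33e-17). IGF2BP3 had 74.8, 68.4, 69.2 and 68.5 normalized CPM in the controls and 46.9 and 47.6 in the knockout, a log2 change of -0.54 (SE 0.054, adjusted p = 1.07e-10). Neither gene overlapped between the groups. In total RNA the log2 changes were -0.42 and -0.48, and the difference from cytoplasmic RNA was not called for IGF2BP1 (-0.18, SE 0.0829, adjusted p = 0.248) or IGF2BP3 (-0.02, SE 0.0967, adjusted p = 0.949). Reads that the 3 related sequences could share were not examined. In RNA from a whole culture, less RNA per cell and fewer cells with the RNA cannot be told apart, here and for the genes that follow.

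Most tested cytoplasmic RNAs differed between the knockout and the control. Of 18212 genes that passed the filter on low counts, 11686 (64.2%) had an adjusted p under 0.05, with 5635 (30.9%) higher and 6051 (33.2%) lower in the knockout. The called genes included 2254 that were at least 2-fold higher and 772 that were at least 2-fold lower, and the median size of a called change was 0.61 on the log2 scale. Of the called genes, 11651 (99.7%) had the same sign in the batch 3 pair and in the batch 4 pair. The spread behind these calls was small, with a biological coefficient of variation of 2.89%, so changes of a small size were called. With upper quartile normalization the median of all genes moved up by 0.148, and 7325 genes were higher and 4569 lower (61.6% higher, beside 48.2%). The direction also went with the level of a gene. Genes tested in both RNA kinds were divided into 5 classes by cytoplasmic control CPM of batches 1 and 2. In the class with the highest level, 72.46% were lower and 13.23% higher (median -0.34). In the lowest class, at 0.02 to 0.92 CPM, 3.22% were lower and 38.59% higher (median 0.75). The filter worked by group, so genes this low could pass it through a knockout group where they were high. They also had little room to be called lower. How much of the split in the lowest class follows from this was not tested. The same limit holds for low members of the gene lists that follow, which were not matched for level.

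**Figure D1:**
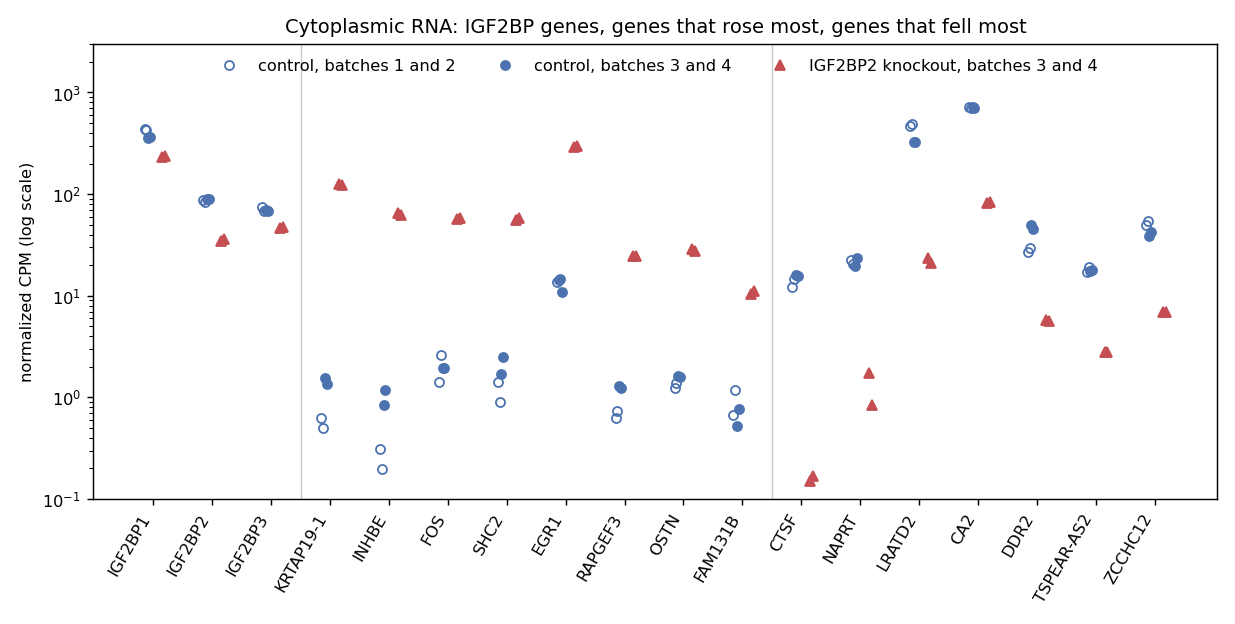
Normalized CPM (log scale) of the 3 IGF2BP genes, the 8 genes that rose most and 7 that fell most in cytoplasmic RNA; each point is 1 library, open circles are controls of batches 1 and 2, filled circles controls of batches 3 and 4, and triangles the IGF2BP2 knockout. The knockout triangles lie apart from all 4 control circles in each of the 18 genes. The genes that rose or fell most were chosen for the size of a called change, so their separation largely follows from the choice.

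The genes that rose most were KRTAP19-1, INHBE, FOS, SHC2, EGR1, RAPGEF3, OSTN and FAM131B. INHBE encodes the beta E subunit of inhibin and activin, a secreted factor of the TGF-beta family. INHBE (chromosome 12, 57452323 to 57459280) had 0.313, 0.198, 0.844 and 1.18 normalized CPM in the controls and 65.5 and 62.6 in the knockout (log2 change 5.96, SE 0.129, adjusted p = 2.82e-28). SHC2 encodes an adaptor of receptor tyrosine kinases and RAPGEF3 encodes EPAC1, a cyclic AMP-activated exchange factor for Rap GTPases. SHC2 had 1.41, 0.892, 1.69 and 2.48 normalized CPM in the controls and 56.2 and 58.7 in the knockout (4.77, SE 0.121, adjusted p = 3.07e-26). RAPGEF3 rose from 0.626, 0.743, 1.3 and 1.24 normalized CPM to 24.6 and 24.7 (4.28, SE 0.156, adjusted p = 4.44e-22). Each of these genes was near the floor of detection in the controls and well above it in both knockout libraries. OSTN, the secreted peptide osteocrin, changed by 4.13 and FAM131B by 4.03. KRTAP19-1, a keratin-associated protein gene with close relatives, changed by 6.42, and reads shared with those relatives were not examined.

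The same genes rose in total RNA by similar amounts. The log2 change in total RNA was 5.88 for INHBE, 4.70 for SHC2, 3.95 for RAPGEF3, 4.58 for OSTN, 4.18 for FAM131B and 6.54 for KRTAP19-1, and for none of these 6 was the difference between RNA kinds called (adjusted p 0.532 to 0.956). Ranked by the gain in CPM, the leading gene outside the mitochondrial genome was TSC22D3, which encodes the glucocorticoid-induced leucine zipper protein GILZ. TSC22D3 had 320, 324, 348 and 351 normalized CPM in the controls and 1841 and 1820 in the knockout (2.39, SE 0.0358, adjusted p = 8.04e-33).

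Immediate-early genes, which are transcribed within minutes of growth factor or stress signals and include FOS and EGR1, rose as a group. Of 24 genes on a list assembled after the values of FOS and EGR1 were seen, 23 were tested in the cytoplasm, 20 rose and 0 fell, beside 30.9% and 33.2% of all genes, with a median log2 change of 1.32 beside 0.01. In total RNA 21 rose and 1 fell, with a median of 1.37 beside 0.02 for all genes, where 47% of all genes were called, 23.3% higher and 23.7% lower. FOS, a subunit of the AP-1 transcription factor, had 1.41, 2.63, 1.95 and 1.95 normalized CPM in the cytoplasmic controls and 57.4 and 58.8 in the knockout (4.90, SE 0.126, adjusted p = 3.62e-26). EGR1, a zinc finger transcription factor, had 13.8, 14.4, 14.5 and 11 in the controls and 291 and 295 in the knockout (4.53, SE 0.0687, adjusted p = 8.4e-33). Neither gene overlapped between the groups. The AP-1 partner JUN rose from 225, 238, 214 and 232 to 563 and 550 normalized CPM (1.32, SE 0.0417), and IER2 rose from 31.8, 35.6, 34.3 and 32.7 to 97.7 and 98.1 (1.55, SE 0.0581). DUSP1, a phosphatase that switches off MAP kinases, changed by 1.57 and CCN1, a secreted matrix protein, by 1.89. IER3 (-0.06), NR4A3 (0.07) and FOSL1 (0.33) were not called.

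FOSB was the immediate-early gene with a called difference between the RNA kinds. It had 2.40, 3.62, 2.79 and 3.24 normalized CPM in the cytoplasmic controls and 14.3 and 15.3 in the knockout, and 6.89, 6.16, 5.67 and 4.53 in the total RNA controls and 42.3 and 47.8 in the knockout. The log2 change was 2.29 in cytoplasmic and 3.12 in total RNA, a difference of -0.81 (SE 0.214, adjusted p = 0.00937). The call of this difference was kept in 8 of 16 alternatives. It was lost when cytoplasmic or total RNA control library 4 was left out (-0.49, adjusted p = 0.458 in both), and also without any 1 of the 4 knockout libraries (adjusted p 0.0585 to 0.0806), with limma (0.204) and in batches 1 to 4 (0.311).

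The promoters of EGR1, FOS and FOSB are shown because these genes moved together and because the cyclic AMP response element core lies close to their start sites. The sequences are the 250 bases before the gene start in RefSeq (GRCh38.p14), all 3 on the plus strand, at chr5:138465229-138465478, chr14:75278578-75278827 and chr19:45467746-45467995. Capitals mark the core TGACGT or its reverse complement and, in EGR1, also 2 CArG boxes, the element bound by serum response factor.
EGR1: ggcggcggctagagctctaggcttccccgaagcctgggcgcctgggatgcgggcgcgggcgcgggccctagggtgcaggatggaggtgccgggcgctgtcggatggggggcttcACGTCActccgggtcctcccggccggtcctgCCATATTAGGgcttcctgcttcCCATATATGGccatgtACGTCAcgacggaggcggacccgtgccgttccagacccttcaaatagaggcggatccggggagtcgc
FOS: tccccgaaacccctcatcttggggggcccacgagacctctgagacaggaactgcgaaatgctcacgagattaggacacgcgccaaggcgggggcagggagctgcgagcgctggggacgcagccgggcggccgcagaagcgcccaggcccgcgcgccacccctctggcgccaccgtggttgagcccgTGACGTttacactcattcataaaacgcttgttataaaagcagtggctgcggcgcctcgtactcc
FOSB: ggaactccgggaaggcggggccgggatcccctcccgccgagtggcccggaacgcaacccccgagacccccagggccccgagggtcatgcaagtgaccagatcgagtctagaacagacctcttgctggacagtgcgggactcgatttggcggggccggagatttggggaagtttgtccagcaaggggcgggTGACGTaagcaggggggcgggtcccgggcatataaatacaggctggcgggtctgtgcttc
TGACGT was found on either strand of 8 of the 18 immediate-early promoters in the table (44.4%) and of 2026 of 27305 promoters of the same length (7.42%). Among the 16 whose gene rose in the cytoplasm, 6 held it (37.5%). The CArG box was found in 1 of the 18, EGR1, and in 312 of all promoters (1.14%). These matches describe letters, and no binding was measured.

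Targets of ATF4, the transcription factor that the integrated stress response translates when initiation factor eIF2 is phosphorylated, were mostly higher. Of 29 genes on this list, all were tested, 22 rose and 4 fell, beside 30.9% and 33.2% of all genes, with a median log2 change of 0.47. In total RNA 18 rose and 3 fell, with a median of 0.61. The 8 regulators and secreted factors of the list all rose, with a median of 2.12, while the 10 amino acid synthesis genes divided into 5 that rose and 3 that fell, with a median of 0.09. ATF3, a stress-induced transcription factor, had 39.1, 36.7, 37.6 and 37.4 normalized CPM in the controls and 244 in each knockout library (2.70, SE 0.0488, adjusted p = 1.99e-30). TRIB3, a pseudokinase, rose from 32.1, 34.9, 36.6 and 36.8 to 223 and 222 (2.60, SE 0.0511, adjusted p = 1.68e-29). CHAC1, which degrades glutathione, rose from 32.7, 31.2, 21.0 and 21.2 to 108 and 105 (2.33, SE 0.0638, adjusted p = 2.19e-25). None of these 3 overlapped between the groups. The secreted hormones FGF21 and GDF15 were among the lowest in the controls. FGF21 rose from 0.052, 0.050, 0.195 and 0.177 to 7.83 and 6.51 normalized CPM, and GDF15 from 0.469, 0.892, 0.973 and 0.884 to 8.17 and 6.94.

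Not all of the list moved in 1 direction. ATF4 itself fell by 0.20 on the log2 scale, and among the enzymes of amino acid and folate metabolism PYCR1 (-0.43), PSPH (-0.40) and MTHFD2 (-0.15) fell while PSAT1 (0.40), ASNS (0.37) and PHGDH (0.13) rose. PYCR1, which makes proline, had 306, 305, 345 and 377 normalized CPM in the controls and 274 and 260 in the knockout. DDIT3, which encodes the stress factor CHOP, was the list member with a called difference between RNA kinds. Its log2 change was 2.14 in cytoplasmic and 1.68 in total RNA (difference 0.50, SE 0.145, adjusted p = 0.0242).

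The promoters of FGF21, ATF3 and CHAC1 are shown for the composite element TGATGNAA, which CEBP and ATF factors bind, marked by capitals on either strand. The windows are the 250 bases before the RefSeq start (GRCh38.p14, plus strand) at chr19:48755274-48755523, chr1:212565157-212565406 and chr15:40953221-40953470.
FGF21: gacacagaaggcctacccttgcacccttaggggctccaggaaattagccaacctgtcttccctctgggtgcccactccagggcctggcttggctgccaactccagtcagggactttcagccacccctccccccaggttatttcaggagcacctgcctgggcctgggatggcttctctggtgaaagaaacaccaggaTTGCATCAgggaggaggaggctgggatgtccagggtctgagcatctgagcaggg
ATF3: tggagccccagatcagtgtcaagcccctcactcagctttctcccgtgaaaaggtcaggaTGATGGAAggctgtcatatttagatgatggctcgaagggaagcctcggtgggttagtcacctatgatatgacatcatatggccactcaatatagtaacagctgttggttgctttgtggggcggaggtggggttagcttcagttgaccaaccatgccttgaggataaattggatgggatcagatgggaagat
CHAC1: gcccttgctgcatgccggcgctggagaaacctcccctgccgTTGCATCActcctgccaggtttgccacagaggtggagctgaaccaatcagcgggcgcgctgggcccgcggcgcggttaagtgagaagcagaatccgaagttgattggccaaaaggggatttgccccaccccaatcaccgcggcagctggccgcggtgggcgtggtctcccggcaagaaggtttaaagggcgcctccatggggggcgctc
TGATGNAA was found in 4 of the 23 promoters of the list that the table holds (17.4%), all 4 among the 20 whose gene rose, and in 870 of all 27305 promoters (3.19%). Both this element and TGACGT are letter matches in a fixed window and were not tested as sites.

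The genes that fell most were CTSF, NAPRT, LRATD2, CA2, DDR2, TSPEAR-AS2 and ZCCHC12. CA2, the cytosolic carbonic anhydrase, had 714, 702, 726 and 702 normalized CPM in the controls and 81.8 and 84.0 in the knockout (-3.11, SE 0.0398, adjusted p = 1.37e-34). LRATD2, a gene of little known function, had 469, 488, 327 and 329 in the controls and 23.8 and 21.1 in the knockout (-3.87, SE 0.0528, adjusted p = 5.26e-34). In LRATD2 the controls of batches 1 and 2 stood above those of batches 3 and 4, and all of them stood above the knockout. CTSF, the lysosomal protease cathepsin F, fell from 12.3, 14.6, 16.0 and 15.5 to 0.152 and 0.169 normalized CPM. The collagen receptor DDR2 fell by 3.06 on the log2 scale, from 27.0, 29.6, 49.5 and 45.9 to 5.74 and 5.71. ZCCHC12, a transcriptional co-activator, fell by 2.54. In total RNA, CA2 fell by 3.04, LRATD2 by 3.79 and DDR2 by 2.82, and for these 3 the difference between RNA kinds was not called.

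Ranked by the loss in CPM, which favours abundant RNAs, the leading genes were housekeeping mRNAs. EEF2, a translation elongation factor, had 5286, 5299, 6235 and 6612 normalized CPM in the controls and 3181 and 3108 in the knockout (-1.03, SE 0.0344, adjusted p = 4.09e-23). HSP90AB1, a cytosolic chaperone, fell from 2448, 2404, 2275 and 2147 to 813 and 835 (-1.42, SE 0.0387, adjusted p = 1.8e-25). The actins ACTG1 (-1.23) and ACTB (-1.10), the tubulin TUBB (-0.98) and GAPDH (-0.82) were the others of the 6 with the largest losses. These 6 genes were chosen for their loss, and the difference from total RNA was called in none of them (adjusted p 0.145 to 1.00). YBX1, an RNA-binding protein of mRNA granules, fell in the same range, from 1721, 1754, 1799 and 1787 to 798 and 770 (-1.19, SE 0.0347).

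Glycolysis, the conversion of glucose to pyruvate and lactate, had the lowest median of the lists. Of 21 genes tested, 18 fell and 2 rose, beside 33.2% and 30.9% of all genes, with a median log2 change of -0.91, and in total RNA the median was -0.93. LDHA, which reduces pyruvate to lactate, had 1276, 1257, 1286 and 1223 normalized CPM in the controls and 363 and 374 in the knockout (-1.77, SE 0.0364, adjusted p = 6.31e-29). PGK1, phosphoglycerate kinase, fell from 546, 547, 539 and 542 to 221 and 225 (-1.28), and the hexokinase HK2 fell from 96.5, 93.1, 81.6 and 77.4 to 37.8 and 37.3 (-1.08). The exceptions were ENO2, the neuronal enolase, which rose from 14.6, 14.3, 16.4 and 14.9 to 46.7 and 45.5 (1.56, SE 0.075), and the glucose transporter SLC2A3 (0.78). PFKP, the platelet phosphofructokinase, fell further in cytoplasmic than in total RNA (-1.74 and -1.36, difference -0.35, adjusted p = 0.0114).

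Other metabolic and growth-related lists are given beside the 33.2% of all genes that fell and the 30.9% that rose. Those shares cover genes of every level, and abundant RNAs fell more often, so part of each count may follow from level. Of 27 genes of cholesterol synthesis and uptake, 19 fell and 3 rose (median -0.48). SQLE, squalene epoxidase, fell from 252, 253, 205 and 200 to 65.8 and 65.2 normalized CPM (-1.62, SE 0.0438). Among 39 genes of protein folding and translocation in the endoplasmic reticulum, 31 fell and 4 rose (median -0.38). XBP1, whose spliced form drives the unfolded protein response, was among those that rose, from 136, 135, 152 and 145 to 343 and 333 (1.19, SE 0.0398). DNA replication genes fell in 34 of 44 cases and rose in 6 (median -0.34). The single-strand binding protein RPA1 changed by -1.0 and the origin recognition subunit ORC6 by 0.45. Of 19 genes that write, erase or read m6A, 13 fell and 3 rose (median -0.30). FMR1, a reader, fell from 181, 174, 173 and 168 to 63.1 and 65.1 (-1.41, SE 0.0449), METTL3, the catalytic writer, fell by 0.30, and YTHDF1 (0.37) and YTHDF2 (0.29), both cytoplasmic readers, rose.

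mRNAs described as IGF2BP targets were divided. Of 29 such mRNAs 28 were tested, 16 fell and 9 rose, beside 33.2% and 30.9% of all genes, with a median log2 change of -0.30. With upper quartile normalization 15 fell and 11 rose (median -0.15). FSCN1, the actin-bundling protein fascin, had 114, 126, 96.4 and 118 normalized CPM in the controls and 37.9 and 37.7 in the knockout (-1.50, SE 0.0615, adjusted p = 1.15e-20). The D-type cyclin CCND1 (-0.94), beta-catenin CTNNB1 (-0.91) and HMGA2 (-0.40) also fell. IGF2, the growth factor after which the family is named, rose from 2.97, 3.57, 2.53 and 2.48 to 10.9 and 10.9 (2.12, SE 0.149, adjusted p = 1.84e-14), and in total RNA it rose by 1.47. CTNNB1 fell further in cytoplasmic than in total RNA (difference -0.26, adjusted p = 0.0438), and LAMB2, a laminin chain, rose further (difference 0.37, adjusted p = 0.00623).

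Of 37 tested genes of the insulin-like growth factor pathway, 14 were higher and 13 lower, beside 30.9% and 33.2% of all genes, with a median of -0.05 that became 0.10 with upper quartile normalization. IGF2 was the tested ligand. Of the receptors, IGF1R was not called (-0.04, SE 0.0508, adjusted p = 0.499), INSR was at 0.16 (adjusted p = 0.0402), a call kept in 8 of 18 alternatives and lost with DESeq2 (adjusted p = 0.184) and without any 1 library of batches 3 and 4 (0.0524 to 0.197), and IGF2R, which clears IGF2, fell from 144, 152, 139 and 131 to 88.6 and 89.0 (-0.60, SE 0.052). The adaptors IRS1 (0.93) and IRS2 (0.87) rose, and IRS4, the most abundant insulin receptor substrate by counts here, rose from 1277, 1251, 1117 and 1116 to 1537 and 1615 (0.50, SE 0.0367). SHC1 (-0.43) and GRB14 (-0.91) fell, and GRB10 was lower by 0.15 (adjusted p = 0.00536) but was at 0.003 with upper quartile normalization, so its direction rests on the scaling. Of the binding proteins, IGFBP4 rose from 4.95, 5.99, 4.87 and 4.30 to 16.2 and 15.2 (1.78, SE 0.12), IGFBP5 rose by 0.68, and IGFBP2 fell by 0.34.

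Innate immune signalling is named in the title of the series. Among 42 genes of innate sensing, 34 were tested, 19 fell and 6 rose, beside 33.2% and 30.9% of all genes, with a median of -0.34. IKBKE, a kinase that acts with TBK1 on interferon regulatory factors, had 8.19, 8.57, 7.66 and 7.96 normalized CPM in the controls and 0.912 and 1.06 in the knockout (-2.99, SE 0.195, adjusted p = 3e-15). TBK1 fell from 55.2, 53.2, 50.5 and 49.6 to 28.9 and 26.3 (-0.86), and MYD88, the adaptor of Toll-like receptors, fell from 16.4, 16.4, 12.4 and 12.3 to 3.99 and 4.82 (-1.49). MAVS, the mitochondrial adaptor of RNA sensors, fell by 0.41. RELB, a subunit of NF-kappaB, rose from 1.67, 2.33, 1.56 and 1.89 to 4.33 and 4.65 (1.38, SE 0.209). TRAF3, a ubiquitin ligase of these pathways, was the list member with a called difference, at -0.37 in cytoplasmic and -0.02 in total RNA (difference -0.32, adjusted p = 0.026).

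Interferon-stimulated genes showed no common direction. Of 58 listed, 50 were tested, 17 rose (34%) and 20 fell (40%), beside 30.9% and 33.2% of all genes. The median was -0.02, or 0.13 with upper quartile normalization. ISG15, a ubiquitin-like modifier, rose from 2.5, 3.32, 2.34 and 3.12 to 7.11 and 5.88 normalized CPM (1.24), and ISG20, an exonuclease, rose from 0.261, 0.198, 0.389 and 0.530 to 2.13 and 2.24 (2.23, SE 0.357). IRF7, a master regulator of interferon transcription, had 14, 28, 16 and 22 counts in the controls and 0 in both knockout libraries, which makes it at least 6.93-fold lower against a floor of 3 counts per library. The floor covers counting error only.

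Total RNA gave a similar picture for most genes, with fewer genes called in its main fit. Of 17759 genes tested in both RNA kinds, 7700 were called in the same direction, 3671 higher and 4029 lower, which is 66.5% of the cytoplasmic calls and 89.4% of the total RNA calls. A further 3864 were called only in cytoplasmic RNA, 891 only in total RNA, and 21 in opposite directions. Library-to-library variation (edgeR's biological coefficient) amounted to 7.87% for total RNA, whose fit held an IGF2BP1 knockout library identical to a nuclear library. Without the IGF2BP1 knockout it was 4.16%, with 11062 called genes in place of 8810. Then 9089 genes were called in the same direction, 2427 only in cytoplasmic RNA, 1664 only in total RNA and 58 in opposite directions. With control and IGF2BP2 knockout only, the coefficient was 3.81% for cytoplasmic and 4.29% for total RNA, with 11251 and 11068 genes called. A call in 1 RNA kind alone does not show a difference, which was therefore tested directly.

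In the direct test, 806 of 19171 genes (4.2%) had a change that differed between cytoplasmic and total RNA, with 583 (3.04%) more positive and 223 (1.16%) more negative in the cytoplasm. The difference comes from a joint fit of both RNA kinds and need not equal the subtraction of the separate changes. The median size of a called difference was 0.46 on the log2 scale, 110 reached 2-fold (95 more positive and 15 more negative), and 799 of 803 with a value in each batch had the same sign in both. The excess of positive differences depended on the scaling: 72.3% were positive with TMM and 51.8% (424 of 819) with RLE size factors. The count rested on the fit: it was 0 by limma on log2(FPKM + 1), where 2524 genes had an unadjusted p under 0.05 (3109 with edgeR). It was 114 (108 and 6) in batches 1 to 4 with the IGF2BP1 knockout, and 472 (391 and 81) with control and IGF2BP2 knockout only. The fit of batches 1 to 4, here and wherever it is used, held the IGF2BP1 knockout library identical to a nuclear library. Its biological coefficient of variation was 6.15%, beside 4% in the main fit of the difference. Leaving out cytoplasmic knockout library 1 or 2 left 260 or 323 calls, and leaving out total RNA knockout library 1 or 2 left 307 or 386. Of the genes higher in the cytoplasm and not called in total RNA, 232 of 1871 had a called positive difference, and of those lower in the cytoplasm and not called in total RNA, 86 of 1993 had a called negative one.

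**Figure D2:**
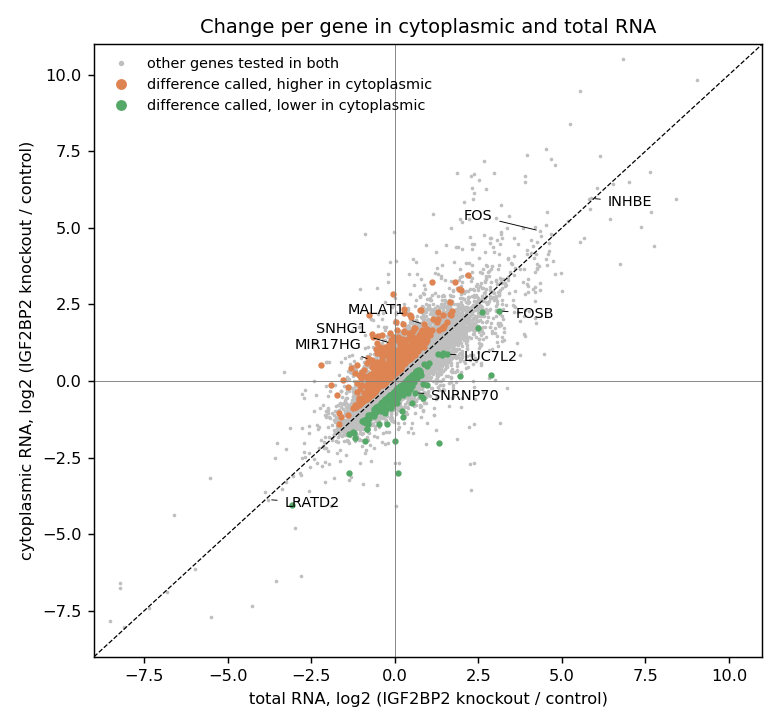
Log2 change (IGF2BP2 knockout over control) of each gene in total RNA (x axis) and cytoplasmic RNA (y axis), with the line of equality dashed; orange and green points are genes with a called difference between the RNA kinds. Most genes lie along the line, with orange points above it (583 over all genes tested) and green points below it (223).

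Host transcripts of small nucleolar RNAs differed between the RNA kinds in 1 direction. These spliced noncoding transcripts carry small nucleolar RNAs in their introns, and many are degraded by nonsense-mediated decay in the cytoplasm. Of 26 tested, 12 rose (46.15%) and 10 fell (38.46%) in cytoplasmic RNA (median 0.16), beside 30.9% and 33.2% of all genes. In total RNA 6 of 27 rose (22.22%) and 12 fell (44.44%), with a median of -0.20, beside 23.3% and 23.7% of all genes. The difference was called and positive in 11 of the 26 and called and negative in 0, beside 3.04% and 1.16% of all genes, with a median of 0.39 beside 0.03, and the count was 11 and 0 also with RLE and with upper quartile normalization, and 7 and 0 of 27 in batches 1 to 4. The 11 were SNHG1, SNHG3, SNHG7, SNHG11, SNHG12, SNHG15, SNHG17, SNHG25, SNHG32, GAS5 and ZFAS1.

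SNHG1 (chromosome 11, 62851988 to 62855914, minus strand) had the lowest adjusted p of all genes in the test of the difference. It had 97.8, 89.1, 95.1 and 97.5 normalized CPM in the cytoplasmic controls and 226 and 227 in the knockout, a log2 change of 1.23 (SE 0.0445, adjusted p = 3.31e-22). In total RNA the controls were at 156, 160, 216 and 211 and the knockout at 208 and 191, and the groups overlapped (-0.10, SE 0.12, adjusted p = 0.531). The difference was 1.37 (SE 0.0869, adjusted p = 2.58e-36). GAS5, chosen after its values were seen, rose in the cytoplasm from 159, 151, 224 and 215 to 535 and 506 (1.24, SE 0.0369) and was at 261, 258, 300 and 305 against 373 and 364 in total RNA (0.28, SE 0.119, adjusted p = 0.0652). Its difference was 1.00 (SE 0.0829, adjusted p = 3.39e-23). SNHG32 rose in both RNA kinds, by 2.14 in the cytoplasm and 1.43 in total RNA (difference 0.76, SE 0.11, adjusted p = 1.78e-08). SNHG3 fell in both, by 0.68 in the cytoplasm and 1.07 in total RNA (difference 0.43, SE 0.0875). SNHG16 fell by about the same amount in both, -1.08 and -1.07, with a difference of 0.03 (SE 0.0887, adjusted p = 0.926).

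Host transcripts of microRNAs, a list formed by name after MIR17HG had been seen, showed the same sign of difference. Of 27 tested in cytoplasmic RNA, 17 rose and 2 fell, beside 30.9% and 33.2% of all genes. In total RNA 7 rose and 4 fell, beside 23.3% and 23.7%. The difference was called and positive in 6 and called and negative in 0, beside 3.04% and 1.16% of all genes. MIR17HG, MIR503HG and MIR34AHG are among the 6 and had been named for the size of their difference. MIR17HG, which carries the miR-17-92 cluster, had 12.8, 12, 12.3 and 12.8 normalized CPM in the cytoplasmic controls and 18.3 and 22.6 in the knockout (0.70, SE 0.101, adjusted p = 2.96e-07). In total RNA its controls had 18.5, 21.9, 41.5 and 36.1 and the knockout 24.2 and 22.6 (-0.73, SE 0.108, adjusted p = 0.000135), and the knockout lay between the controls of the 2 pairs of batches. The difference was 1.46 (SE 0.132, adjusted p = 3.25e-20). MIR503HG was called higher in cytoplasmic RNA (0.58) and lower in total RNA (-0.83), and MIR34AHG changed by 1.60 and 0.26, with differences of 1.441 and 1.37. MIRLET7A1HG, MIRLET7IHG and MIR222HG, outside the rule for naming, had differences of 1.16, 1.14 and 1.13.

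**Figure D3:**
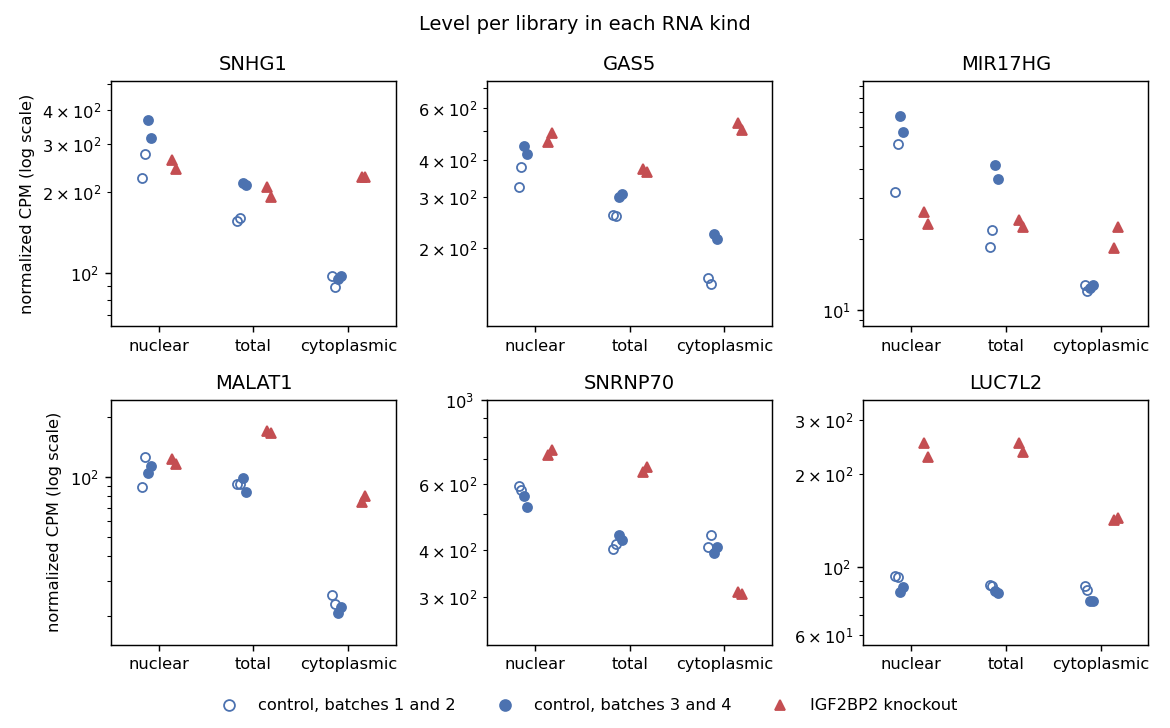
Normalized CPM (log scale) of SNHG1, GAS5, MIR17HG, MALAT1, SNRNP70 and LUC7L2 in nuclear, total and cytoplasmic RNA; each point is 1 library, open circles are controls of batches 1 and 2, filled circles controls of batches 3 and 4, and triangles the IGF2BP2 knockout. SNHG1 and MIR17HG are higher in the knockout in cytoplasmic RNA alone, with knockout values of 226 and 227 for SNHG1 beside 89.1 to 97.8 in the controls, and SNRNP70 is lower in the knockout in cytoplasmic RNA alone.

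Protein-coding genes were also among the largest positive differences. U2AF1L4, related to the small subunit of the splicing factor U2AF, had 2.5, 3.72, 2.08 and 1.83 normalized CPM in the cytoplasmic controls and 7.75 and 8.67 in the knockout, and 6.80, 6.32, 7.21 and 6.12 in the total RNA controls and 8.96 and 9.84 in the knockout (difference 1.60, SE 0.24, adjusted p = 5.79e-08). LTB4R, a leukotriene B4 receptor gene, was called higher in the cytoplasm (0.92) and lower in total RNA (-0.52), with a difference of 1.48 (SE 0.157). PFDN5, a prefoldin subunit, had a difference of 1.48 (SE 0.234) at 2.21 to 4.02 normalized CPM in the cytoplasmic controls. SLC16A4-AS1, an antisense RNA, had a difference of 1.33 (SE 0.206), and reads shared with the gene on the other strand were not examined. DDX39B, an RNA helicase of mRNA export, and IQGAP1, a scaffold protein, were chosen after their values were seen. DDX39B rose from 118, 120, 123 and 126 to 270 and 272 in the cytoplasm (1.12) and by 0.30 in total RNA (difference 0.85, SE 0.0851, adjusted p = 7.13e-17). IQGAP1 had 43.1, 40.9, 45.5 and 40.8 in the cytoplasmic controls and 61.5 and 60.02 in the knockout (0.49), and 305, 321, 271 and 284 in the total RNA controls and 210 and 217 in the knockout (-0.38), a difference of 0.91 (SE 0.0931, adjusted p = 4.33e-16).

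The opposite pattern, a change that was more negative in the cytoplasm, was led by SNRNP70, which encodes the U1-70K protein of the U1 small nuclear ribonucleoprotein. SNRNP70 (chromosome 19, 49085419 to 49108605, plus strand) had 407, 438, 393 and 408 normalized CPM in the cytoplasmic controls and 310 and 305 in the knockout (-0.38, SE 0.0426, adjusted p = 1.28e-09). In total RNA it had 403, 415, 438 and 426 in the controls and 647 and 666 in the knockout (0.60, SE 0.085, adjusted p = 8.75e-05). The groups did not overlap in either RNA kind and their order was reversed, with a difference of -0.95 (SE 0.0821, adjusted p = 9.52e-22). LUC7L2, a U1-associated splicing factor chosen after its values were seen, rose in both RNA kinds and by less in the cytoplasm: from 86.6, 84.2, 77.7 and 77.2 to 142 and 144 in cytoplasmic RNA (0.88) and from 87.5, 86.7, 83.6 and 82.6 to 253 and 237 in total RNA (1.56), a difference of -0.64 (SE 0.0901, adjusted p = 5.39e-09). NAPRT, an enzyme of NAD synthesis, fell by 4.03 in the cytoplasm and 3.08 in total RNA (difference -0.94, SE 0.228), but on log2(FPKM + 1) its difference was 0.03, and it was -0.47 without cytoplasmic knockout library 2 (adjusted p = 0.569) or total RNA knockout library 2 (0.538). The call was also lost without either control library 4 (adjusted p = 0.0862 and 0.0874) and in batches 1 to 4 (0.181). TCP11L1 fell by 1.40 and 0.48 (difference -0.88, SE 0.144).

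In the main fits 21 genes were called in opposite directions, 16 higher in cytoplasmic and lower in total RNA and 5 the reverse. With the total RNA fit without the IGF2BP1 knockout the count was 58, and the genes below are those of the main fits. ENSG00000291300, 1 of 2 identifiers with the symbol PRSS30P and chosen after its values were seen, had the largest difference of the 16 (2.04, SE 0.249, adjusted p = 8.52e-12). PILRB, LTB4R, MIR17HG and MIR503HG followed in that order. PILRB, a receptor gene, was near the threshold in the cytoplasm (0.76, adjusted p = 0.0497), with a control of 1.46 normalized CPM beside knockout values of 1.71 and 1.40. Of the 5, SNRNP70, KALRN, TACC2 and MAP7 had the largest differences. MAP7, a microtubule-associated protein, had 31.5, 31.6, 33.9 and 33.5 in the cytoplasmic controls and 29.9 and 29 in the knockout (-0.19, adjusted p = 0.0125), and 24.0, 25.7, 28.8 and 26.9 in the total RNA controls and 36.6 and 37.9 in the knockout (0.42, adjusted p = 0.0267). Its cytoplasmic call, and those of TACC2 and KALRN, were lost with upper quartile normalization (adjusted p = 0.565, 0.250 and 0.193). VCAN, the matrix proteoglycan versican, was the remaining one, with -0.26 and 0.32 and a difference of -0.54.

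Called positive differences were most frequent among RNAs with the highest nuclear to cytoplasmic ratio in the control, and the other classes held some too. Genes were divided into 10 equal classes by the log2 ratio of nuclear to cytoplasmic level in control libraries 1 and 2, which took no part in the difference test. The 2 RNA kinds were scaled separately, so the ratio ranks genes and does not give the share of an RNA that is nuclear. In the class with the highest ratio, with ratios of 0.96 to 4.803, the median difference was 0.30, and 281 of 1481 genes (18.97%) had a called positive difference and 16 (1.08%) a called negative one. The class before it had a median of 0.06, with 90 positive and 26 negative of 1480. In the other 8 classes the medians lay between -0.02 and 0.02. In the class with the highest ratio the median was 0.34 in the batch 3 pair and 0.18 in the batch 4 pair. This class had a median cytoplasmic change of 0.37 and a median total RNA change of 0.05.

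**Figure D4:**
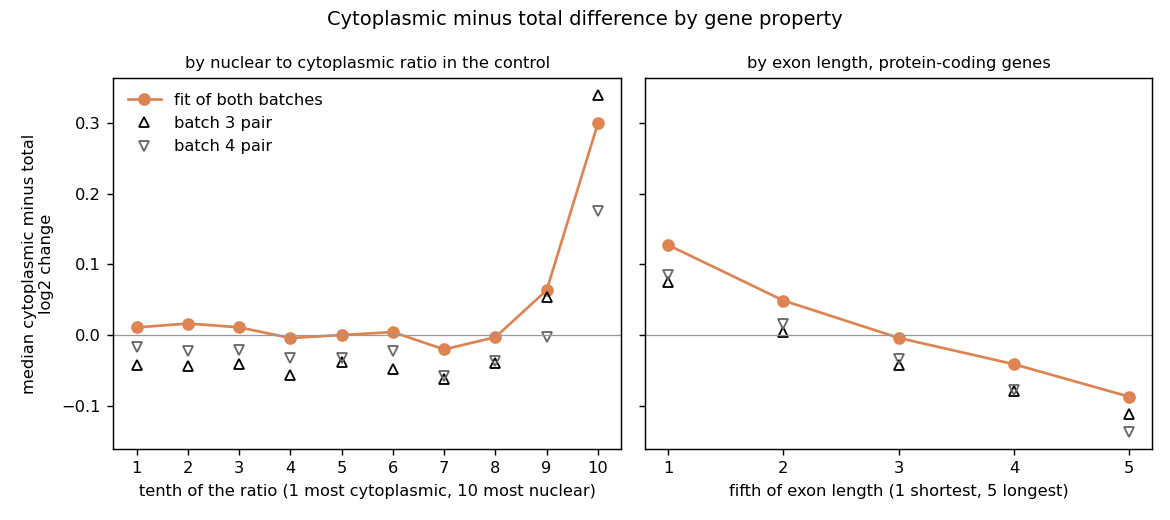
Median cytoplasmic minus total log2 change in 10 classes of the nuclear to cytoplasmic ratio in control libraries 1 and 2 (left) and 5 classes of exon length of protein-coding genes (right); circles are the fit of both batches and triangles the same-batch pairs. The median reaches 0.30 in the class with the highest ratio, and it falls from 0.13 in the shortest to -0.09 in the longest class.

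Markers of nuclear RNA moved in the same direction. Of 8 listed, 7 were tested, 5 rose and 0 fell in cytoplasmic RNA (median 0.47), beside 30.9% and 33.2% of all genes. Their sum was 400.3 to 445 CPM in the controls and 1073 and 1131 in the knockout. In total RNA 4 rose and 1 fell, beside 23.3% and 23.7% of all genes. The sum was 676 to 760 CPM in the controls and 1441 and 1400.0 in the knockout. MALAT1, a nuclear speckle RNA, had 25.4, 22.8, 20.8 and 22.2 normalized CPM in the cytoplasmic controls and 75.1 and 80.4 in the knockout (1.85, SE 0.152), and 91.5, 92.3, 99.0 and 84.0 in the total RNA controls and 169 and 166 in the knockout (0.87, SE 0.135), a difference of 1.01 (SE 0.106, adjusted p = 1.18e-15). NEAT1, the scaffold of paraspeckles, rose by 1.94 and 1.56 (difference 0.41, SE 0.0863, adjusted p = 0.000395), and KCNQ1OT1 was at 0.22 (adjusted p = 0.342) and -0.72 (difference 0.98, SE 0.22). For OIP5-AS1, TUG1, PVT1 and MIAT the difference was not called. Of 8 cytoplasmic marker RNAs, 6 fell, among them PKM, TUBA1B and LDHA, and 0 rose in cytoplasmic RNA. Beside these stand 33.2% and 30.9% of all genes, and 72.46% and 13.23% of the class of genes with the highest level. The sum of the 8 was 14700 to 16060 CPM in the controls and 12720 and 12660 CPM in the knockout. Whether the yield of the fractionation has a part in these differences was not tested.

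Genes with a short exon length also tended to positive differences. The length was that of all annotated exons of a gene merged, which is not the length of 1 transcript. Among protein-coding genes divided by this length, the median difference fell from 0.13 in the shortest class to 0.05, -0.004, -0.04 and -0.09 in the longest. Called differences were 119 positive and 5 negative of 2746 in the shortest class and 60 positive and 117 negative of 2745 in the longest. The order was the same in the batch 3 pair (0.07 to -0.11) and the batch 4 pair (0.08 to -0.14). By annotation, the median was 0.006 for 13724 protein-coding genes, 0.18 for 888 lincRNAs, 0.15 for 1119 antisense RNAs, 0.28 for 183 processed transcripts and 0.23 for 780 pseudogenes. The share of counts without a gene symbol was 0.349% to 0.372% in the cytoplasmic controls and 0.587% and 0.601% in the knockout.

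Components of the ribosome and the respiratory chain, whose mRNAs are short, were mostly lower in both RNA kinds. Of 79 cytosolic ribosomal protein genes, 55 fell and 8 rose in cytoplasmic RNA (median -0.21), beside 33.2% and 30.9% of all genes. In total RNA 53 fell and 1 rose (median -0.38), beside 23.7% and 23.3%. The cytoplasmic share that fell, 69.62%, was near the 72.46% of the class of genes with the highest level. The cytoplasmic counts depended on the fit: 38 fell and 21 rose with upper quartile normalization (median -0.07), and 27 fell and 3 rose with no batch term. The difference was positive in 11 and negative in 0, beside 3.04% and 1.16% of all genes, and positive in 4 with control and IGF2BP2 knockout only and in 1 in batches 1 to 4. RPS14, a small subunit protein, had 1109, 1049, 1212 and 1273 normalized CPM in the cytoplasmic controls and 1159 and 1126 in the knockout (-0.12), and 887, 854, 867.8 and 938 in the total RNA controls and 660 and 643 in the knockout (-0.47), a difference of 0.39 (adjusted p = 0.000412). RPLP0, a stalk protein, was lower by 0.15 in the cytoplasm with TMM and at 0.001 with upper quartile normalization. RPL36A rose by 0.97 in the cytoplasm and by 0.13 in total RNA (difference 0.88, SE 0.131), and its copies elsewhere in the genome could share reads.

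Among 76 nuclear-encoded respiratory chain subunits, 65 fell and 7 rose in cytoplasmic RNA (median -0.48), beside 33.2% and 30.9% of all genes. In total RNA 62 fell and 1 rose (median -0.61), beside 23.7% and 23.3%. The cytoplasmic share that fell was 85.53%, beside 72.46% in the class of genes with the highest level. The difference was positive in 13 and negative in 0, beside 3.04% and 1.16% of all genes, and in batches 1 to 4 with the IGF2BP1 knockout, where 114 genes were called in all, it was called in 0 of the 76 (median 0.17, beside 0.16). ATP5MC1, a subunit of the ATP synthase ring, had 136, 137, 132 and 128 normalized CPM in the cytoplasmic controls and 58.9 and 57.2 in the knockout (-1.16, SE 0.0468), and fell by 1.61 in total RNA (difference 0.48, SE 0.0953, adjusted p = 0.000119). COX6A1, a cytochrome c oxidase subunit, was at 0.43 and -0.08 (difference 0.54, adjusted p = 1.13e-06).

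The 13 mRNAs of the mitochondrial genome divided into 5 that rose and 5 that fell in the cytoplasm, beside 30.9% and 33.2% of all genes. Their median was -0.02, or 0.13 with upper quartile normalization. In total RNA 0 rose and 5 fell (median -0.26), beside 23.3% and 23.7% of all genes. The difference was positive in 9 and negative in 0, beside 3.04% and 1.16% of all genes. It was positive in 5 and negative in 0 with RLE, and in 1 and 0 in batches 1 to 4. MT-ND1, a complex I subunit, had 3872, 3907, 4210 and 3972 normalized CPM in the cytoplasmic controls and 5805 and 5501 in the knockout (0.47, SE 0.0431), and 1396, 1307, 1561 and 1340 in the total RNA controls and 1538 and 1651 in the knockout (0.14, SE 0.0977), a difference of 0.36 (SE 0.0829, adjusted p = 0.00139). The groups did not overlap in the cytoplasm and overlapped in total RNA. The difference was 0.39 for MT-CYB and 0.40 for MT-CO3, and MT-ND6, the subunit encoded on the other strand, fell by 0.87 and 1.26 (difference 0.43). MT-ND4 was lower by 0.12 with TMM and higher by 0.02 with upper quartile normalization.

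**Figure D5:**
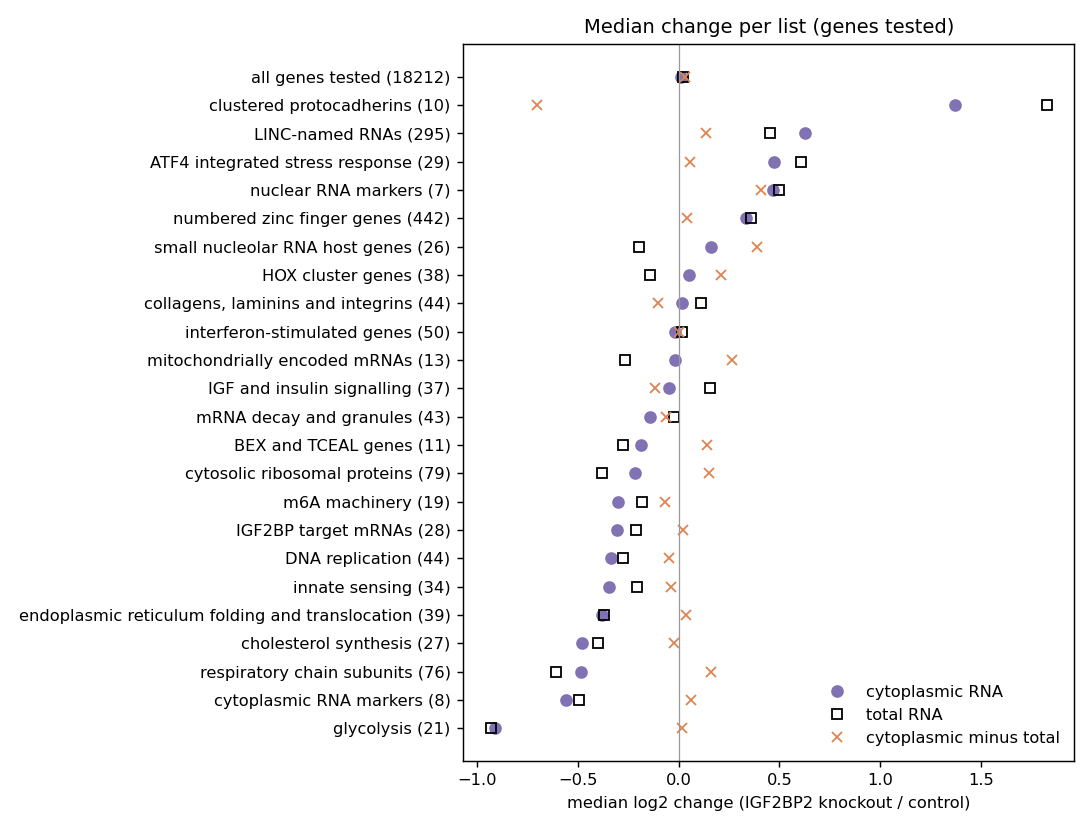
Median log2 change (x axis) of the genes of each list in cytoplasmic RNA (filled circles) and total RNA (open squares), and median of the difference between them (crosses), with the number of genes tested in cytoplasmic RNA in brackets. Glycolysis has the lowest medians (-0.91 and -0.93), and the small nucleolar RNA host genes lie on opposite sides of 0 in the 2 RNA kinds (0.16 and -0.20).

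For 3 lists described above, the share of members with a called difference was near that of all genes. The difference was called in 1 of 29 ATF4 targets, in 1 of 23 immediate-early genes and in 1 of 21 glycolytic genes, beside 4.2% of all genes. A call that was not made does not show that the 2 RNA kinds changed alike.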

How the data were processed

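Per the labels' protocols, cytoplasmic and total RNA was isolated with a fractionation kit and treated with DNase I, and 200 ng entered a stranded poly(A) library kit for paired 50-base sequencing. The deposited tables hold raw counts per gene and FPKM values made by the authors. Per the submitters' processing notes, STAR, featureCounts, DESeq2 1.44.0 and GRCh38 were used, with no role stated, and whether counting used strand is not given in the sources used here. The count tables hold 62703 identifiers, 58279 of them in GENCODE 29, and 20403 have no symbol.

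Counts were tested with edgeR 4.0.16 (R 4.3.3; TMM, filterByExpr, quasi-likelihood test, batch and genotype) over all libraries of an RNA kind, with Benjamini-Hochberg adjustment over all genes and a threshold of 0.05. The difference came from a joint fit of control, IGF2BP2 knockout and IGF2BP3 knockout libraries of batches 3 and 4, with a block for each genotype and batch. The code was tested on simulated data. Alternatives used limma 3.58.1 on log2(FPKM + 1), computed here from the FPKM the authors deposited, DESeq2 1.42.0, other scalings and filters, and left-out libraries. Tables and figures used Python 3.11.15, pandas 2.3.3, numpy 2.4.6 and matplotlib 3.10.9. Summed marker levels and the naming rule used CPM of plain totals.

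Genes were named by rule: the IGF2BP family; the 8 with the largest log2 rise and fall among called genes of at least 10 CPM; the 6 with the largest gain and loss in CPM; the 8 largest and 8 smallest differences at 5 CPM or more; the extreme members of each list at 1 CPM or more; tested IGF ligands, receptors, adaptors and binding proteins; up to 4 genes called in opposite directions; and markers. Other list members, and GAS5, LUC7L2, DDX39B, IQGAP1, VCAN and PRSS30P, were chosen after their values were seen. The comparison and the lists were chosen with earlier results of these data known. Some genes that the rule names are not reported here.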

Additional observations from a re-analysis of the deposited data

Results flagged for a closer look

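Of 272 groups of 4 control libraries compared, 5 held a library set apart from the other 3 by Dixon's criterion, and chance gives about 1 in 20 such groups. In cytoplasmic RNA, IGF2BP3 was at 74.85 normalized CPM in control 1 (the others at 68.37 to 69.17), NOMO3 at 10.11 in control 2 (7.563 to 7.662), NDUFA7 at 1.2 in control 1 (0.584 to 0.644) and CDH2 at 47.18 in control 3 (40.27 to 40.57). In total RNA, SHC1 was at 54.85 in control 1 (57.33 to 57.65).

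For 37 named genes the edgeR test called a difference in log2 change between cytoplasmic and total RNA, 27 with a higher and 10 with a lower value in the cytoplasm. Among noncoding RNAs the difference was 1.463 for MIR17HG, 1.441 for MIR503HG, 1.369 for SNHG1, 1.367 for MIR34AHG, 1.329 for SLC16A4-AS1, 1.014 for MALAT1, 0.9752 for KCNQ1OT1, 0.7634 for SNHG32 and 0.409 for NEAT1. Among nuclear protein-coding genes it was 1.603 for U2AF1L4, 1.577 for PILRB, 1.481 for LTB4R, 1.48 for PFDN5, 0.8803 for RPL36A, 0.4829 for ATP5MC1, 0.3945 for PAN2 and 0.2952 for ORC6. For RNAs of the mitochondrial genome it was 0.4317 for MT-ND6, 0.4033 for MT-RNR2, 0.397 for MT-CO3, 0.3936 for MT-CYB, 0.3768 for MT-CO1, 0.363 for MT-ND1, 0.2771 for MT-ND2, 0.263 for MT-ATP6, 0.2598 for MT-CO2 and 0.2595 for MT-ND3. The lower values were -0.9488 for SNRNP70, -0.9435 for NAPRT, -0.8791 for TCP11L1, -0.812 for FOSB, -0.7511 for KALRN, -0.7341 for PWP2, -0.7341 for NOMO3, -0.7182 for NPNT, -0.6979 for TACC2 and -0.5742 for MAP7. Of 16 alternatives, the call was kept in 6 for KALRN, 7 for NPNT, 8 for NOMO3, 8 for FOSB, 9 for PWP2, 10 for NAPRT, 12 for TACC2 and 14 for MAP7, and PWP2 was at -0.43 (adjusted p = 0.611) without cytoplasmic knockout library 2. NOMO3 and PFDN5 have near-identical copies or pseudogenes that could share their reads.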

How the results depend on the processing

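The count of genes called in cytoplasmic RNA (11686) was 9219 with DESeq2 and 9722 without a batch term, and 10122 to 11657 when 1 library was left out. With the replicate number of the labels as a block in place of batch (replicate block) it was 7694. Those numbers do not pair the samples, since knockout libraries 1 and 2 are from batches 3 and 4 and control libraries 1 and 2 from batches 1 and 2. Called genes in total RNA (8810) ranged from 4656 to 11072 when 1 library was left out, with 5510 without control 3, 5066 without control 4, 4972 without knockout 1 and 4656 without knockout 2. The difference between RNA kinds was called for 806 genes, for 472 with control and IGF2BP2 knockout only, for 114 in batches 1 to 4 with the IGF2BP1 knockout, for 786 with no block, for 260 to 660 when 1 library was left out, and for 0 by limma on log2(FPKM + 1), where 2524 genes had an unadjusted p under 0.05. The main total RNA fit and the fit of batches 1 to 4 held the IGF2BP1 knockout library identical to a nuclear library. The cause of these changes in count was not tested. For single genes, GRB10 (0.00281), RPLP0 (0.001423) and MT-ND4 (0.02374) changed sign with upper quartile normalization, RPLP0 (0.01645) and MT-ND4 (0.08897) with the replicate block, and the NAPRT difference (0.02625) with limma on log2(FPKM + 1).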

Other observations

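Several large gene families are described here by their counts in cytoplasmic RNA, without a test and without matching for level. Of 442 numbered zinc finger genes tested, mostly DNA-binding repressors, 243 rose and 64 fell, beside 30.9% and 33.2% of all genes (median log2 change 0.33), and 224 of 444 rose in total RNA (median 0.36). ZNF331 rose most (3.03, SE 0.166) and ZNF804A fell most (-2.19, SE 0.256). Of 2264 long intergenic noncoding RNAs named LINC, 295 were tested, 130 rose (44.07%) and 26 fell (8.81%), with a median of 0.63. In the class of genes with the lowest level 38.59% rose and 3.22% fell (median 0.75). Low RNAs could pass the filter through a knockout group where they were high, so the counts are not read as a trait of these RNAs. Among 44 collagens, laminins, integrins and related matrix genes, 19 rose and 20 fell. FN1, the matrix protein fibronectin, had 21.1, 20.2, 22.1 and 19.9 normalized CPM in the controls and 56.4 and 54.2 in the knockout (1.40, SE 0.0756), with a similar value in total RNA (1.41).

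HOX cluster genes set position along the body axis. In the cytoplasm 15 of 38 were higher (39.5%) and 13 lower (34.2%), beside 30.9% and 33.2% of all genes (median 0.05). In total RNA 4 were higher (10.5%), 16 lower (42.1%) and 18 not called, beside 23.3% and 23.7% of all genes higher and lower (median -0.14). The difference was positive in 5 (HOXA4, HOXC8, HOXB3, HOXA9 and HOXD10) and negative in 0, beside 3.04% and 1.16% of all genes. HOXA4 was called in opposite directions, at 0.87 in cytoplasmic and -0.38 in total RNA (difference 1.28, SE 0.222). Of 905 genes of chromosome 11 tested, 110 rose (12.15%) and 528 fell (58.34%), beside 31.32% and 33.96% of all genes, with a median of -0.45, and the median in total RNA was -0.47. Chromosome 10 (19.38% higher, 51.1% lower) and chromosome 7 (22.26% higher, 46.54% lower) leaned the same way. On chromosome 18, 113 of 259 rose and 56 fell (median 0.24). Each knockout is 1 clone, and the copy number of these chromosomes was not tested.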
